A study of Mus musculus with 14 samples.

Results

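The genes of endotoxin sensing were followed in whole mouse liver through every probe whose gene symbol was Cd14, Lbp, Tlr4, Ly96, Tlr2, Myd88, Irak1, Irak3 or Irak4. The array tables held 9 such probes among 25697, for 8 of the 9 genes, out of 16593 gene symbols on the array. Tlr4 had 2 probes and the others 1 each, and Irak4 is not analysed here. After a filter that kept probes detected on at least 3 arrays, 8 of the 9 probes and 14109 probes in all were tested, and the probe left out was the second of Tlr4. The livers came from mice labelled wild type (WT) or Alb-Cre+ (Alb-Cre below), all of which had received a plasmid by hydrodynamic delivery, a rapid high-volume injection that places DNA in hepatocytes, and were killed 1 week later. The plasmid expressed either interleukin 13 (IL-13) or EGFP, a green fluorescent protein used as the control. There were 4 WT EGFP, 3 WT IL-13, 4 Alb-Cre EGFP and 3 Alb-Cre IL-13 samples, with 1 array each. The series title gives the Alb-Cre mice a floxed Il4ra, the gene of the IL-4 receptor alpha chain through which IL-13 signals. In such mice the albumin promoter drives Cre in hepatocytes. Il4ra itself is not analysed here, so neither its loss nor its retention in other liver cells was checked. Strain and age are not given in the sources used here. Nothing in the labels says that each sample was a separate mouse, so the p-values cover the spread among samples, which may be technical.

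Endotoxin is the lipopolysaccharide (LPS) of Gram-negative bacteria. In the circulation LBP, a protein secreted mainly by hepatocytes, takes LPS from bacterial membranes and hands it to CD14, which is found both on the surface of myeloid cells and in soluble form. CD14 passes LPS to the receptor TLR4 and its partner protein MD2, encoded by Ly96, while TLR2 senses bacterial lipoproteins and also uses CD14. The adaptor MyD88 then recruits the kinases IRAK4 and IRAK1, whose activation leads to NF-kappaB, and IRAK3 (IRAK-M) is a relative that restrains this step. In the liver, which receives gut-derived LPS through the portal vein, Kupffer cells, endothelial cells and hepatocytes all take part in its clearance.

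Promoter windows from RefSeq (GRCm38.p6), running from 250 bases before to 50 bases after a start site, were found for 5 of the 9 genes, in 7 windows. No window was used for Cd14, Lbp, Tlr4 or Ly96. The windows were searched on both strands for the motifs TTCNNNNGAA (STAT6), TTCNNNGAA (other STAT factors), TTGCNNCAA (C/EBP), TGANTCA (AP-1) and the NF-kappaB motif. A match was found in the windows of Myd88 and Tlr2, which are shown because both genes were higher in WT IL-13 livers. Capitals mark the matches, and both sequences read 5′ to 3′ on the minus strand, at chr9:119339969-119340268 for Myd88 and chr3:83841559-83841858 for Tlr2.
Myd88: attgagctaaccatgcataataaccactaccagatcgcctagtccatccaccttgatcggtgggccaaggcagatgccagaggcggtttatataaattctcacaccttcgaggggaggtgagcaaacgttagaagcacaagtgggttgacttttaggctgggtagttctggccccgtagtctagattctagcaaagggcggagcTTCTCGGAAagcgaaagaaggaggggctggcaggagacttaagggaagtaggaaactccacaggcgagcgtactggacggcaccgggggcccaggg
Tlr2: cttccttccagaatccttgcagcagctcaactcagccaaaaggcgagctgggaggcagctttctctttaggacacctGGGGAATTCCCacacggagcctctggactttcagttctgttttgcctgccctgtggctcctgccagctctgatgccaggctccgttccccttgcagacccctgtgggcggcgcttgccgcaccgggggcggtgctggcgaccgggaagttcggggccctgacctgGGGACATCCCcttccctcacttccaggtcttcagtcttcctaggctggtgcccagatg
The Myd88 window held 1 STAT match, TTCTCGGAA, from 46 to 38 bases before the start site. A STAT match of these letters was present in 8.3% of all 32851 windows. The Tlr2 window held 3 NF-kappaB matches, of which 2 overlap from base -173 to base -163 and 1 spans the start site from base -8 to base 2. This start site, at 83841608, lies inside the annotated gene, whose first base on the minus strand is 83841824. The 2 overlapping matches therefore lie within the annotated gene. An NF-kappaB match was present in 4.51% of all windows. The windows of Irak1, Irak3 and Irak4 held 0 matches to any of the 5 motifs. A match is a run of letters and not a measured binding site.

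The 14 arrays were of similar depth, with 45.0 to 51.6% of probes detected (a detection p under 0.05) and a mean intensity between 283 and 354, and replicates correlated with r between 0.978 and 0.993 across probes. A number within each array name was taken as its slide, although no label calls it that. By this reading slide 1 held replicates 1 and 2 of every group and slide 2 held the rest, which for each IL-13 group was replicate 3 alone. Xist, transcribed from the silenced X chromosome, was detected on 10 arrays and not on 4, namely WT IL-13 replicate 3 and all 3 Alb-Cre IL-13 arrays, and on those 4 the Y-linked transcript Eif2s3y was detected. No label gives the sex. The 2 transcripts read as in male tissue on those 4 arrays and as in female tissue on the other 10. Within Alb-Cre this split coincided with the plasmid, so plasmid and Xist status, and with it apparent sex, cannot be told apart there. On slide 2 the split coincided with the plasmid in both genotypes. Between genotypes under IL-13, and in the difference of the IL-13 responses, genotype and Xist status can be only partly told apart. Of 10 hepatocyte markers, 9 passed the detection filter, and Alb and Ttr, which define the cell type, were detected on all 14 arrays.

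In WT livers the signal of Cd14 was 66.9-fold higher with IL-13 than with EGFP after background correction. The fold was 25.8 without background correction, 23.7 in the authors' deposited log2 table and 40.5 with a normexp offset of 50. Lbp was 4.04-fold higher and Myd88 1.98-fold higher. In Alb-Cre livers the Cd14 change was 1.74-fold and the Myd88 change 1.32-fold, and the Lbp change did not pass the test. The Alb-Cre Cd14 call was lost without background correction, in the authors' log2 table and with a normexp offset of 50. Ly96 and Irak1 did not pass in either genotype. Of the 8 probes tested, 6 were higher and 0 lower in WT, where 19.2% of all probes tested were higher and 18.9% lower (38.1% either way). For 5 of the 8 the IL-13 and EGFP arrays did not overlap, against 41.2% of all probes. In Alb-Cre livers 2 of the 8 were higher and 0 lower, against 9.38% of all probes higher and 7.99% lower (17.4% either way), and 3 did not overlap, against 27.4% of all. Tlr4 passed the detection filter only through the IL-13 arrays, where it was higher, so its direction was partly set by the filter. Among the other 7 probes, 5 were higher and 4 did not overlap in WT, and 2 were higher and 2 did not overlap in Alb-Cre. The response in Alb-Cre was smaller than in WT for 3 of the 8 (Cd14, Lbp and Myd88), and 5.64% of all probes had a lower response in that sense (11.6% differed either way). The median log2 change of the 8 probes was 0.68 in WT and 0.26 in Alb-Cre, beside medians over all probes of -0.01 and -0.04. Calls rest on limma with Benjamini-Hochberg adjustment over all 14109 probes at a threshold of 0.05. In whole liver, a change in the number of cells of a type and a change in RNA per cell cannot be told apart.

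Cd14 encodes the LPS co-receptor. Its normalised log2 intensity on the WT EGFP arrays, replicates 1 to 4, was 5.77, 5.59, 5.95 and 5.38. On the WT IL-13 arrays it was 11.36, 11.27 and 12.58. Every WT IL-13 array lay more than 5 log2 units above every WT EGFP array, and replicate 3 was the highest. In the Alb-Cre livers the values were 5.17, 5.51, 5.37 and 5.74 with EGFP, and 6.50, 6.29 and 5.95 with IL-13. The 3 Alb-Cre IL-13 arrays lay above the 4 Alb-Cre EGFP arrays, by a small margin beside the WT change. The log2 change was 6.06 ± 0.255 (SE) in WT, with a 95% interval from 5.52 to 6.61 and an adjusted p of 4.16e-11. It was 13th among 14109 probes ranked by rise. For Alb-Cre livers it was 0.80 ± 0.255, with an interval from 0.26 to 1.34 and an adjusted p of 0.0411. Subtracting the WT response from the Alb-Cre response gave -5.27 ± 0.361, with an interval from -6.03 to -4.50 and an adjusted p of 4.56e-07. Only 1 of the 14109 probes had a more negative difference. The WT rise and the difference passed the test within slide 1 alone (5.64 and -4.58), with a WT fold of 49.8. Slide 2 alone held only replicate 3 of each IL-13 group, so its values carry no spread among IL-13 arrays. They were 6.91 and -6.52, with a WT fold of 120.3, and 0.39 for the Alb-Cre rise. The Alb-Cre rise missed the threshold without WT EGFP replicate 1 or 2, Alb-Cre EGFP replicate 1, 2 or 3, or Alb-Cre IL-13 replicate 1 or 2, with adjusted p between 0.0519 and 0.153.

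Ranked by group mean, Cd14 stood at 11.74 ± 0.73 (SD, n = 3) in WT IL-13, 6.25 ± 0.282 (n = 3) in Alb-Cre IL-13, 5.67 ± 0.244 (n = 4) in WT EGFP and 5.45 ± 0.239 (n = 4) in Alb-Cre EGFP. The last 2 groups overlapped, and the lowest Alb-Cre IL-13 array and the highest WT EGFP array both read 5.95. On the deposited linear scale the mean intensity was 135.2 in WT EGFP, 3431 in WT IL-13, 124.1 in Alb-Cre EGFP and 167.4 in Alb-Cre IL-13. The probe was detected on all 14 arrays.

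Lbp encodes the LPS-binding protein of plasma, an acute-phase product. Its WT EGFP values were 9.10, 9.94, 8.90 and 9.09, and its WT IL-13 values were 11.23, 11.02 and 11.57. The 2 groups did not overlap, and WT EGFP replicate 2 was the highest of its group. Alb-Cre EGFP arrays read 9.02, 9.89, 9.52 and 9.23, and Alb-Cre IL-13 arrays 10.65, 9.59 and 9.62. Here the groups overlapped, with replicate 1 alone above all EGFP arrays. The log2 change was 2.01 ± 0.282 in WT (adjusted p = 3.2e-05) and 0.54 ± 0.282 in Alb-Cre (adjusted p = 0.222). The Alb-Cre interval ran from -0.06 to 1.14. The responses differed by -1.47 ± 0.399 (adjusted p = 0.0247). That difference did not pass the test on slide 1 alone (-0.94, adjusted p = 0.483) or in the authors' log2 table (-1.17, adjusted p = 0.0966). Its adjusted p was 0.0713 with no detection filter and 0.0541 with trended robust variance moderation. It also missed the threshold without WT EGFP replicate 3, WT IL-13 replicate 3, Alb-Cre IL-13 replicate 2 or Alb-Cre IL-13 replicate 3, with adjusted p between 0.0523 and 0.0744.

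In order of mean, Lbp stood at 11.27 ± 0.274 (SD, n = 3) in WT IL-13, 9.96 ± 0.604 (n = 3) in Alb-Cre IL-13, 9.42 ± 0.379 (n = 4) in Alb-Cre EGFP and 9.26 ± 0.464 (n = 4) in WT EGFP. The arrays of the last 3 groups overlapped.

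**Figure D1:**
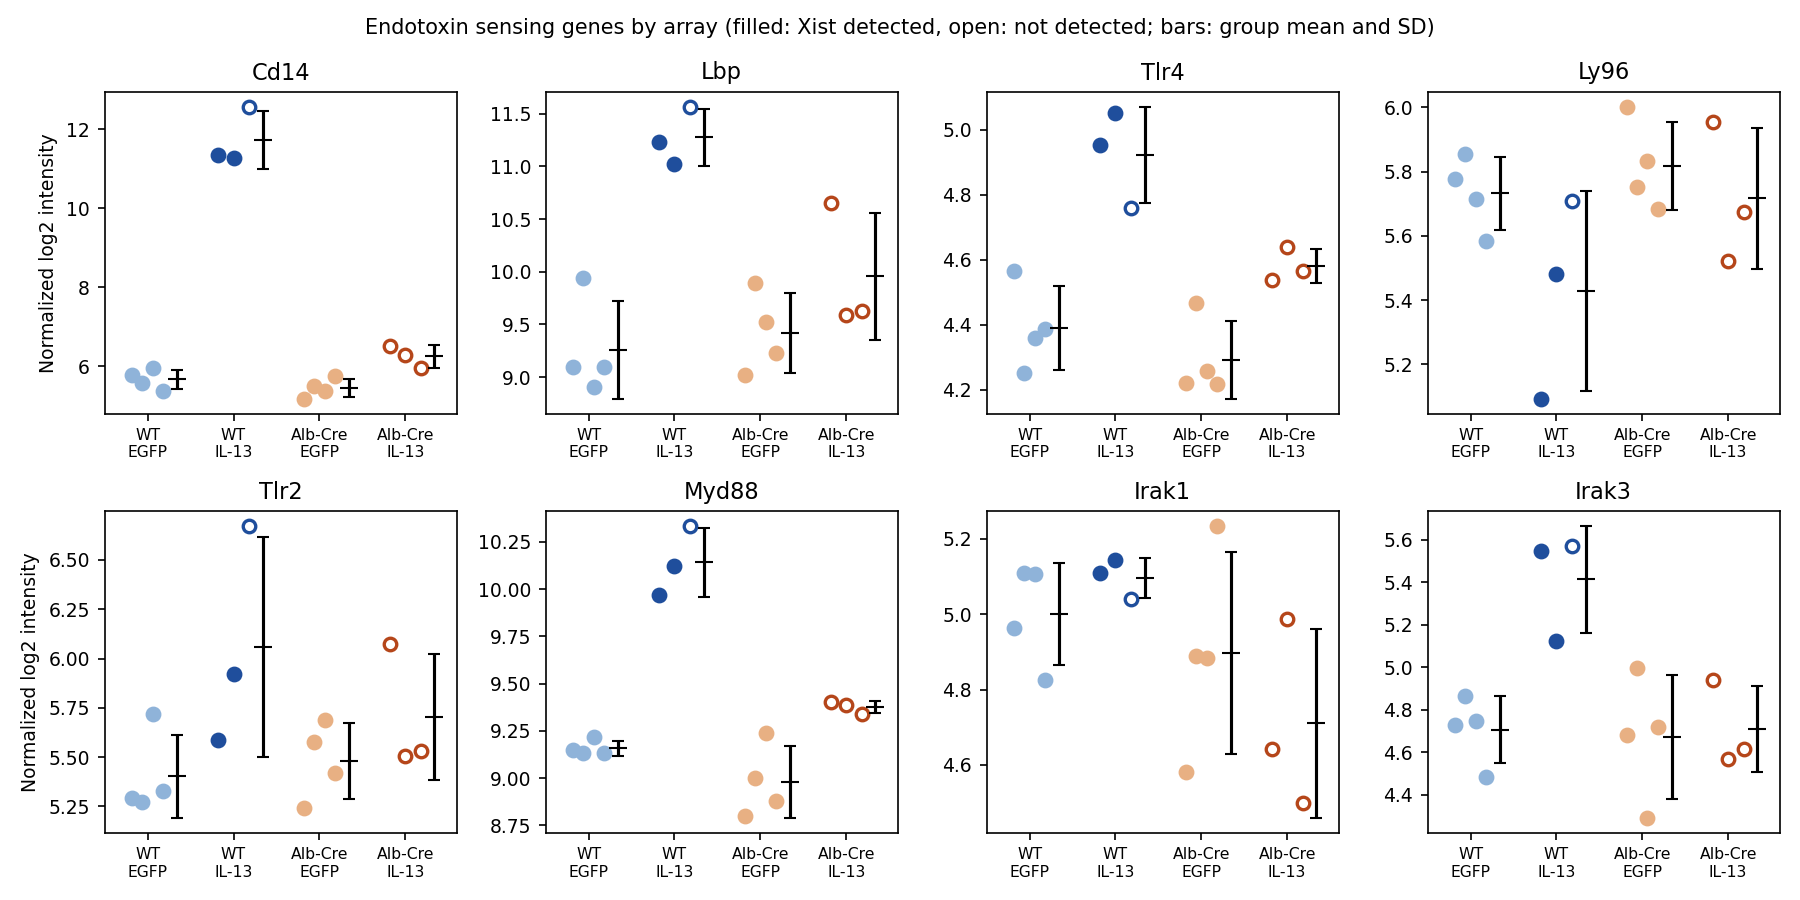
Normalised log2 intensity (vertical axes, each with its own range) of the 8 tested probes on the 14 arrays by group; each point is 1 array, filled where Xist was detected and open where it was not, and the bars give the group mean and SD. Cd14 lies between 11.27 and 12.58 on the WT IL-13 arrays and at or below 6.50 on all other arrays.

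Tlr4 encodes the signalling receptor for LPS. Its tested probe read 4.56, 4.25, 4.36 and 4.39 on the WT EGFP arrays, 4.95, 5.05 and 4.76 on the WT IL-13 arrays, 4.22, 4.47, 4.26 and 4.22 on the Alb-Cre EGFP arrays, and 4.54, 4.64 and 4.56 on the Alb-Cre IL-13 arrays. These values lie close to background, and the probe was detected on 1 of 4 WT EGFP arrays, on 0 of 4 Alb-Cre EGFP arrays and on all 6 IL-13 arrays. The probe was kept only because of the IL-13 arrays, so the absence of overlap between IL-13 and EGFP arrays in both genotypes is given as a description. The change in WT was 0.53 ± 0.108 on the log2 scale (adjusted p = 9.59e-04). Its adjusted p was 6.99e-04 with no detection filter and 0.138 on slide 2 alone. Among Alb-Cre livers it was 0.29 ± 0.108 and did not pass the test (adjusted p = 0.0797). With the EGFP arrays raised to their detection limit, the IL-13 mean stood 1.02-fold above theirs, a value that carries no test. The difference of responses was -0.24, with an interval from -0.57 to 0.08 (adjusted p = 0.361). The second Tlr4 probe was detected on 0 of the 14 arrays and read between 4.16 and 4.43, so it gave only a bound in every group.

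By mean level, Tlr4 stood at 4.92 ± 0.149 (SD, n = 3) in WT IL-13, 4.58 ± 0.0526 (n = 3) in Alb-Cre IL-13, 4.39 ± 0.13 (n = 4) in WT EGFP and 4.29 ± 0.119 (n = 4) in Alb-Cre EGFP. Arrays of the 2 EGFP groups overlapped each other, and WT EGFP overlapped Alb-Cre IL-13.

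Ly96, whose product MD2 binds LPS inside the TLR4 complex, did not follow Cd14. It read 5.78, 5.85, 5.72 and 5.58 in WT EGFP livers and 5.09, 5.48 and 5.71 in WT IL-13 livers. Alb-Cre EGFP livers gave 6.002, 5.75, 5.83 and 5.68, and Alb-Cre IL-13 livers gave 5.95, 5.52 and 5.67. The groups overlapped in both genotypes. The log2 change was -0.31 ± 0.144 in WT, with an interval from -0.61 to 0.00 (adjusted p = 0.112), and -0.10 ± 0.144 in Alb-Cre, with an interval from -0.41 to 0.20 (adjusted p = 0.704). Without WT IL-13 replicate 3, the highest array of its group, the WT value was -0.45 (adjusted p = 0.0272). The difference of responses was 0.20, with an interval from -0.23 to 0.64. Means lay between 5.43 ± 0.312 (SD, n = 3) in WT IL-13 and 5.82 ± 0.138 (n = 4) in Alb-Cre EGFP, with 5.73 ± 0.114 (n = 4) in WT EGFP and 5.72 ± 0.219 (n = 3) in Alb-Cre IL-13, and all neighbours in this order overlapped.

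Tlr2 encodes the lipoprotein receptor that shares CD14 with TLR4. Its values were 5.29, 5.27, 5.72 and 5.33 in WT EGFP, and 5.59, 5.92 and 6.67 in WT IL-13. The groups overlapped through WT EGFP replicate 3, and WT IL-13 replicate 3 was the highest array. In Alb-Cre they were 5.24, 5.58, 5.69 and 5.42 with EGFP, and 6.07, 5.51 and 5.53 with IL-13, again with overlap. The change was 0.66 ± 0.215 in WT (adjusted p = 0.0238) and 0.22 ± 0.215 in Alb-Cre (adjusted p = 0.551, interval from -0.24 to 0.68). Without WT IL-13 replicate 3 the WT change was 0.35 (adjusted p = 0.158). Without WT EGFP replicate 1, 2 or 4 its adjusted p lay between 0.0522 and 0.0578. The WT change also missed the threshold with no detection filter (adjusted p = 0.061) and on slide 1 alone (0.47, adjusted p = 0.152). The difference of responses, -0.44 ± 0.304, did not pass the test (adjusted p = 0.42). The order of means was 6.06 ± 0.557 (SD, n = 3) in WT IL-13, 5.70 ± 0.32 (n = 3) in Alb-Cre IL-13, 5.48 ± 0.192 (n = 4) in Alb-Cre EGFP and 5.40 ± 0.212 (n = 4) in WT EGFP, with overlap between all neighbours.

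Myd88 encodes the adaptor shared by TLR2, TLR4 and the IL-1 receptors. It read 9.15, 9.13, 9.22 and 9.13 in WT EGFP livers and 9.97, 10.12 and 10.33 in WT IL-13 livers. The WT groups were more than 0.7 log2 units apart at their nearest arrays. Alb-Cre EGFP livers gave 8.80, 9.002, 9.24 and 8.88, and Alb-Cre IL-13 livers 9.40, 9.38 and 9.34. These did not overlap either, with Alb-Cre EGFP replicate 3 the nearest. The log2 change was 0.98 ± 0.115 in WT (adjusted p = 5.04e-06) and 0.40 ± 0.115 in Alb-Cre (adjusted p = 0.025). The responses differed by -0.59 ± 0.162 (adjusted p = 0.0277). Both the Alb-Cre rise and the difference missed the threshold on slide 1 alone (adjusted p = 0.0689 and 0.348) and on slide 2 alone (0.538 and 0.129). The Alb-Cre rise also missed the threshold without Alb-Cre EGFP replicate 1 or 4 or any 1 of the Alb-Cre IL-13 replicates, with adjusted p between 0.0516 and 0.0762. The difference missed it in the authors' log2 table (-0.34, adjusted p = 0.118), and without WT IL-13 replicate 2, WT IL-13 replicate 3 or Alb-Cre IL-13 replicate 3 its adjusted p lay between 0.0505 and 0.0682. The means, from the highest, were 10.14 ± 0.183 (SD, n = 3) in WT IL-13, 9.38 ± 0.0327 (n = 3) in Alb-Cre IL-13, 9.16 ± 0.0386 (n = 4) in WT EGFP and 8.98 ± 0.191 (n = 4) in Alb-Cre EGFP, and only the last 2 of these overlapped as neighbours.

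Irak3 encodes the kinase relative that dampens TLR signalling. WT EGFP arrays read 4.73, 4.86, 4.75 and 4.48, and WT IL-13 arrays 5.55, 5.12 and 5.57. The WT groups did not overlap, although these levels are near background and WT EGFP replicate 4 was not detected. Alb-Cre EGFP arrays read 4.68, 4.998, 4.29 and 4.72, and Alb-Cre IL-13 arrays 4.94, 4.57 and 4.61, which overlapped. The change was 0.71 ± 0.163 in WT (adjusted p = 0.00248) and 0.04 ± 0.163 in Alb-Cre, with an interval from -0.31 to 0.38 (adjusted p = 0.915). The difference of responses, -0.67 ± 0.23, did not pass the test (adjusted p = 0.0724). The WT rise did not pass on slide 1 alone (adjusted p = 0.0854). The mean was 5.41 ± 0.252 (SD, n = 3) in WT IL-13, and the other 3 groups, at 4.71 ± 0.159 (n = 4) in WT EGFP, 4.71 ± 0.202 (n = 3) in Alb-Cre IL-13 and 4.67 ± 0.292 (n = 4) in Alb-Cre EGFP, overlapped.

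Irak1, the kinase that IRAK4 activates, showed no change that passed the test. Its values were 4.96, 5.11, 5.11 and 4.83 in WT EGFP, and 5.11, 5.14 and 5.04 in WT IL-13. In Alb-Cre they were 4.58, 4.89, 4.88 and 5.23 with EGFP, and 4.64, 4.99 and 4.50 with IL-13. The groups overlapped in both genotypes. The log2 change was 0.10 in WT, with an interval from -0.21 to 0.41, and -0.19 in Alb-Cre, with an interval from -0.50 to 0.12. Group means lay between 5.10 ± 0.0531 (SD, n = 3) in WT IL-13 and 4.71 ± 0.251 (n = 3) in Alb-Cre IL-13, with 5.001 ± 0.136 (n = 4) in WT EGFP and 4.90 ± 0.268 (n = 4) in Alb-Cre EGFP between them, and neighbours in this order overlapped.

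**Figure D2:**
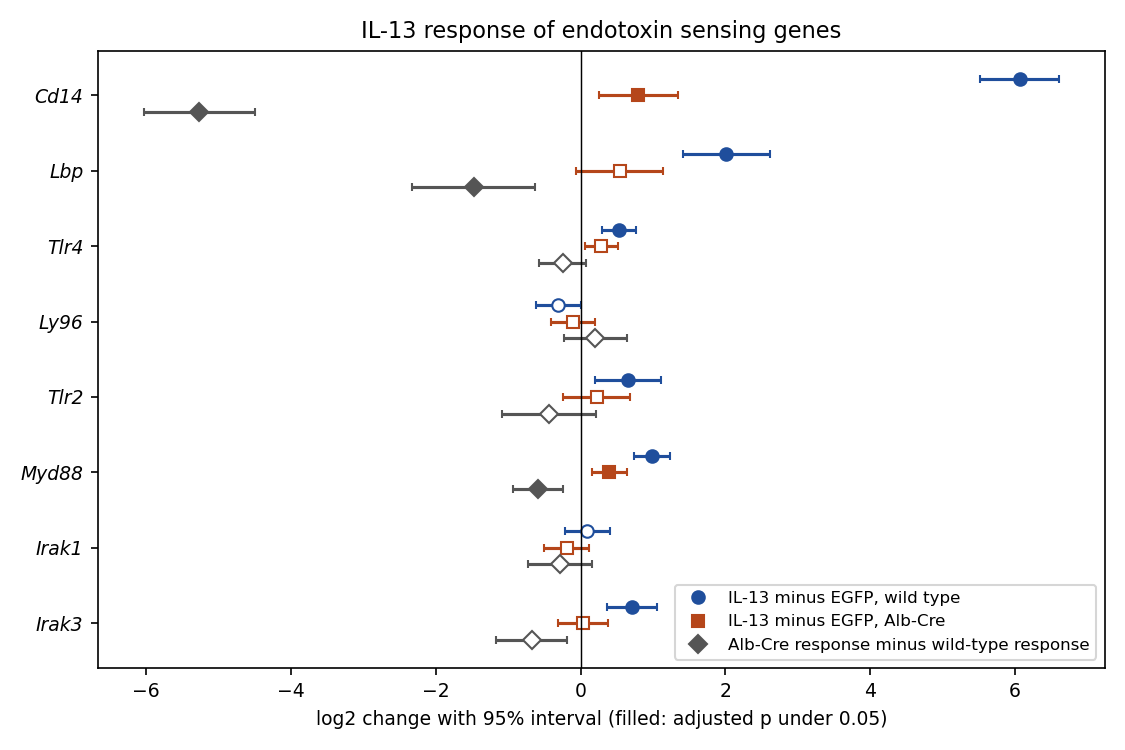
Log2 change with IL-13 (horizontal axis) for the 8 tested probes, with circles for WT, squares for Alb-Cre and diamonds for the Alb-Cre response minus the WT response; bars are 95% intervals and filled symbols have an adjusted p under 0.05. Cd14 has the largest WT change of the 8 (6.06) and the largest difference of responses (-5.27).

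Alb-Cre livers were then set against WT livers under the same plasmid. With IL-13, Xist was undetected on every Alb-Cre array but only on replicate 3 of WT, so genotype and Xist status are only partly separable. With IL-13, Cd14 was 44.9-fold lower in Alb-Cre, a log2 difference of -5.49 ± 0.273 (adjusted p = 3.83e-09). That fold was 21.8 without background correction, 19.3 in the authors' deposited log2 table, 31.3 with a normexp offset of 50, 30.3 on slide 1 alone and 99.2 on slide 2 alone. Lbp differed by -1.32 ± 0.301 (adjusted p = 0.00554), Myd88 by -0.77 ± 0.123 (adjusted p = 3.7e-04) and Irak3 by -0.71 ± 0.174 (adjusted p = 0.00896). For Tlr4 the difference was -0.34 ± 0.116 (adjusted p = 0.0489). That call was lost in 19 of 29 repeats, with adjusted p up to 0.617. Among them were the repeats without WT IL-13 replicate 1 or 2, any 1 Alb-Cre IL-13 array, WT EGFP replicate 2, 3 or 4, or Alb-Cre EGFP replicate 1, 3 or 4. The 8 probes thus gave 5 lower and 0 higher, against 9.85% of all probes lower and 9.63% higher (19.5% either way), and 6 did not overlap between genotypes, against 31.3% of all probes. Irak1 was the sixth, with a difference of -0.39 (adjusted p = 0.0976). On slide 1 alone, where each IL-13 group has 2 arrays, Lbp did not pass (-1.005, adjusted p = 0.183). Irak3 passed on neither slide alone (-0.58, adjusted p = 0.12 on slide 1, and -0.96, adjusted p = 0.0602 on slide 2). Ly96 (0.29, interval from -0.04 to 0.62) and Tlr2 (-0.36, interval from -0.84 to 0.13) did not pass the test.

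With EGFP, 0 of the 8 probes and 0 of 14109 in all passed limma's test between genotypes (0%), while 546 of the 14109 had an unadjusted p under 0.05. The member differences ranged from -0.22 for Cd14, with an interval from -0.73 to 0.28, to 0.16 for Lbp, with an interval from -0.40 to 0.71. The EGFP arrays of the 2 genotypes overlapped for all 8, while 2.70% of all probes did not overlap.

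Arrays of an IL-13 group did not spread evenly. WT IL-13 replicate 3, the WT IL-13 array without Xist, was the highest of its group for 6 of the 8 probes, the exceptions being Tlr4 and Irak1. Alb-Cre IL-13 replicate 1 was the highest of its group for 6 of the 8, again with Tlr4 and Irak1 as the exceptions. The calls for Cd14, Lbp and Myd88 in WT and for Cd14 between genotypes under IL-13 held without any single array.

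Cell type markers were summed per array on the linear normalised scale, since CD14, TLR4 and TLR2 are abundant on myeloid cells. For the marker counts below, the shares over all 9711 genes, each by its brightest probe, were 21.2% higher and 18.8% lower in WT. In Alb-Cre they were 10.9% higher and 7.56% lower. Of 12 neutrophil markers 9 were tested, and 8 rose with IL-13 in WT and 8 in Alb-Cre, with 0 differing between the responses. Of the 9, Ngp, Camp and Mpo passed the filter only through the IL-13 arrays, and among the other 6 there were 5 higher in each genotype. The summed level of the 9 ranged from 247.1 to 512 in WT EGFP, 1370 to 2979 in WT IL-13, 241.7 to 345.7 in Alb-Cre EGFP and 1010 to 2345 in Alb-Cre IL-13. S100a8, a calcium-binding protein abundant in neutrophils, rose by 3.25 in WT and by 3.15 in Alb-Cre on the log2 scale, and S100a9, its partner, by 2.55 and 2.47.

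For monocytes and infiltrating macrophages 5 of 12 markers were tested, of which 3 rose and 1 fell in WT and 3 rose and 0 fell in Alb-Cre. Their sum ranged from 401.6 to 506.8 in WT EGFP, 963.2 to 1083 in WT IL-13, 430.7 to 541.7 in Alb-Cre EGFP and 718.6 to 1012 in Alb-Cre IL-13. The defining markers Ccr2, Itgam, Itgax and Fcgr1 were below the detection filter. Lyz2, lysozyme of myeloid cells, was the one that fell, by 1.40 in WT. Its second probe read -0.91 in WT and -0.47 in Alb-Cre (adjusted p = 0.0362). Most of the rise of the sum came from Lgals3, whose log2 mean went from 6.49 to 9.59 in WT. In Alb-Cre the Lgals3 mean went from 6.51 to 8.83.

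Of 12 Kupffer cell markers 10 were tested, with 5 higher and 2 lower in WT and 4 higher and 0 lower in Alb-Cre. The sum ranged from 4887 to 5065 in WT EGFP, 5859 to 7849 in WT IL-13, 4669 to 5283 in Alb-Cre EGFP and 5926 to 6739 in Alb-Cre IL-13. Clec4f, a lectin of resident Kupffer cells, fell by 2.22 in WT and had a change of -0.07 in Alb-Cre, and the responses differed by 2.16 ± 0.353 (adjusted p = 9.01e-04). Its second probe read -0.98 in WT (adjusted p = 7.42e-04) and -0.47 in Alb-Cre (adjusted p = 0.114), and there the difference of 0.51 did not pass (adjusted p = 0.261). Vsig4, a complement receptor of these cells, rose by 0.61 in WT (adjusted p = 0.0238).

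Of the 9 hepatocyte markers tested, 6 fell in WT and 0 in Alb-Cre, with sums from 79970 to 86230 in WT EGFP, 61080 to 65670 in WT IL-13, 76380 to 84650 in Alb-Cre EGFP and 71800 to 82080 in Alb-Cre IL-13. Alb, serum albumin, fell by 1.56 in WT, and its change in Alb-Cre was -0.25 (adjusted p = 0.449), a difference of 1.31 ± 0.284 (adjusted p = 0.00701). Ttr, the thyroxine carrier transthyretin, fell by 0.72 in WT. Apoa2, Hnf4a and Asgr1 did not pass in WT, at 0.03, 0.02 and 0.0044. Among the other cell types, 1 of 8 sinusoidal endothelial markers rose and 3 fell in WT, and 1 rose and 2 fell in Alb-Cre. Their sum ranged from 3435 to 3697 in WT EGFP and 999.9 to 1370 in WT IL-13. In Alb-Cre it ranged from 3403 to 4071 with EGFP and 1041 to 2054 with IL-13. Clec4g, the brightest of these markers, made up most of the EGFP sums. Its log2 mean went from 11.50 to 8.99 in WT and from 11.60 to 9.68 in Alb-Cre. Pecam1 went the other way, from 6.33 to 7.66 in WT and from 6.24 to 7.71 in Alb-Cre. Of 11 stellate cell and myofibroblast markers 4 rose in each genotype, while 3 fell in WT and 2 in Alb-Cre. Lrat passed the filter only through the IL-13 arrays, and Hgf was detected on 2 WT EGFP arrays and 1 Alb-Cre IL-13 array. Among the other 9 again 4 rose in each genotype. Eosinophil (2 tested), cholangiocyte (2), B cell (1) and T and NK cell (1) markers were mostly below the detection filter, and of these 1 cholangiocyte marker rose in each genotype. The T and NK cell marker, Cd3g, was detected on 4 WT EGFP arrays, 1 Alb-Cre EGFP array and 0 IL-13 arrays. It passed the filter only through the EGFP arrays, so no count is given for it. The eosinophil markers Prg2 and Ccr3 were detected on 0 of the 8 EGFP arrays and passed the filter only through IL-13 arrays, so no count is given for them. The part of any of these cell types in the Cd14, Lbp or Myd88 values was not tested.

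**Figure D3:**
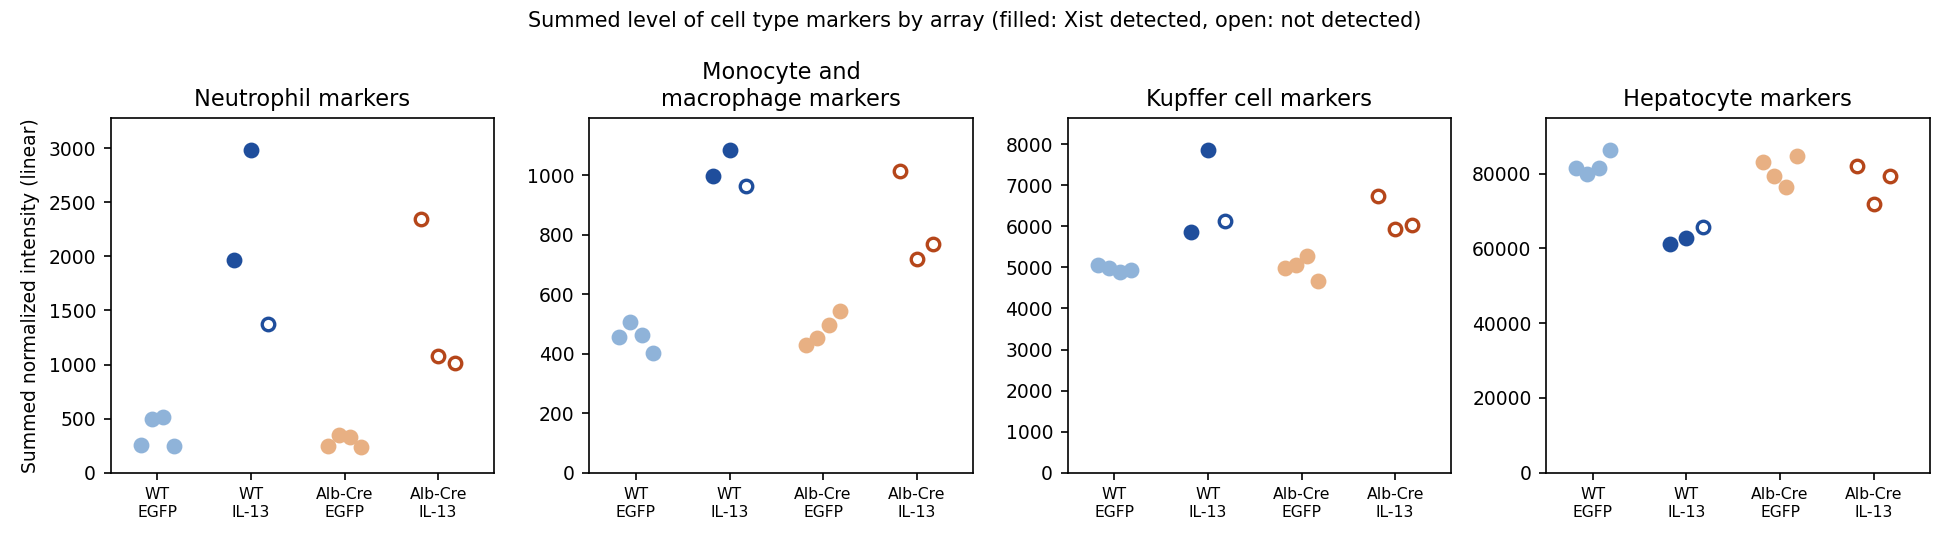
Summed linear normalised intensity of the tested markers of 4 cell types (vertical axes from 0) on each of the 14 arrays by group; filled points had Xist detected and open points did not. Neutrophil sums of the IL-13 groups overlap between genotypes (1370 to 2979 in WT, 1010 to 2345 in Alb-Cre), and hepatocyte sums of the WT IL-13 arrays (61080 to 65670) lie below those of the other 3 groups.

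The rest of the pathway was read from lists in which the brightest tested probe stood for each gene. Over 9711 genes, 21.2% were higher and 18.8% lower in WT, 10.9% and 7.56% in Alb-Cre, and 6.37% had a higher and 6.14% a lower response in Alb-Cre than in WT. Among the other genes of LPS capture and receptor assembly, 3 of 8 tested rose and 2 fell in WT, and 1 rose in Alb-Cre. Hsp90b1, the chaperone that folds Toll-like receptors, rose by 0.43 ± 0.119 in WT, and Cnpy3, its co-chaperone, fell by 0.53 ± 0.108. Cd36, a scavenger receptor that works with TLR2, was 0.41 higher but passed the filter only through the IL-13 arrays, as did Itgb2, and Scarb1, a lipoprotein receptor that also takes up LPS, fell by 0.80. Itgb2, the beta chain of leukocyte integrins, had a change of -0.02 in WT and 0.19 in Alb-Cre. The difference of responses did not pass limma's test for any of the 8.

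Of 8 genes tested for LPS detoxification and cytosolic sensing, 1 rose and 1 fell in each genotype. The one that rose, Pglyrp1, a peptidoglycan-binding protein of granulocytes, was detected on 0 of the 4 WT EGFP arrays and was at least 1.36-fold higher with IL-13 in WT, and it read 0.44 higher in Alb-Cre (adjusted p = 0.0222), having passed the filter only through the IL-13 arrays. Apoe, apolipoprotein E, fell by 0.36 and 0.26. Casp4, the cytosolic LPS sensor (0.41, adjusted p = 0.153), and Pltp, the phospholipid transfer protein (-0.51, adjusted p = 0.169), did not pass in WT, nor did Apoa1 (0.06). Of 4 other Toll-like receptor genes tested, Tlr13, a sensor of bacterial ribosomal RNA, rose by 0.72 in WT on the brighter of its 2 probes, while the other read 0.03 (adjusted p = 0.903). Tlr7, Tlr6 and the transport protein gene Unc93b1 changed by -0.18, 0.26 and -0.01 and did not pass.

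**Figure D4:**
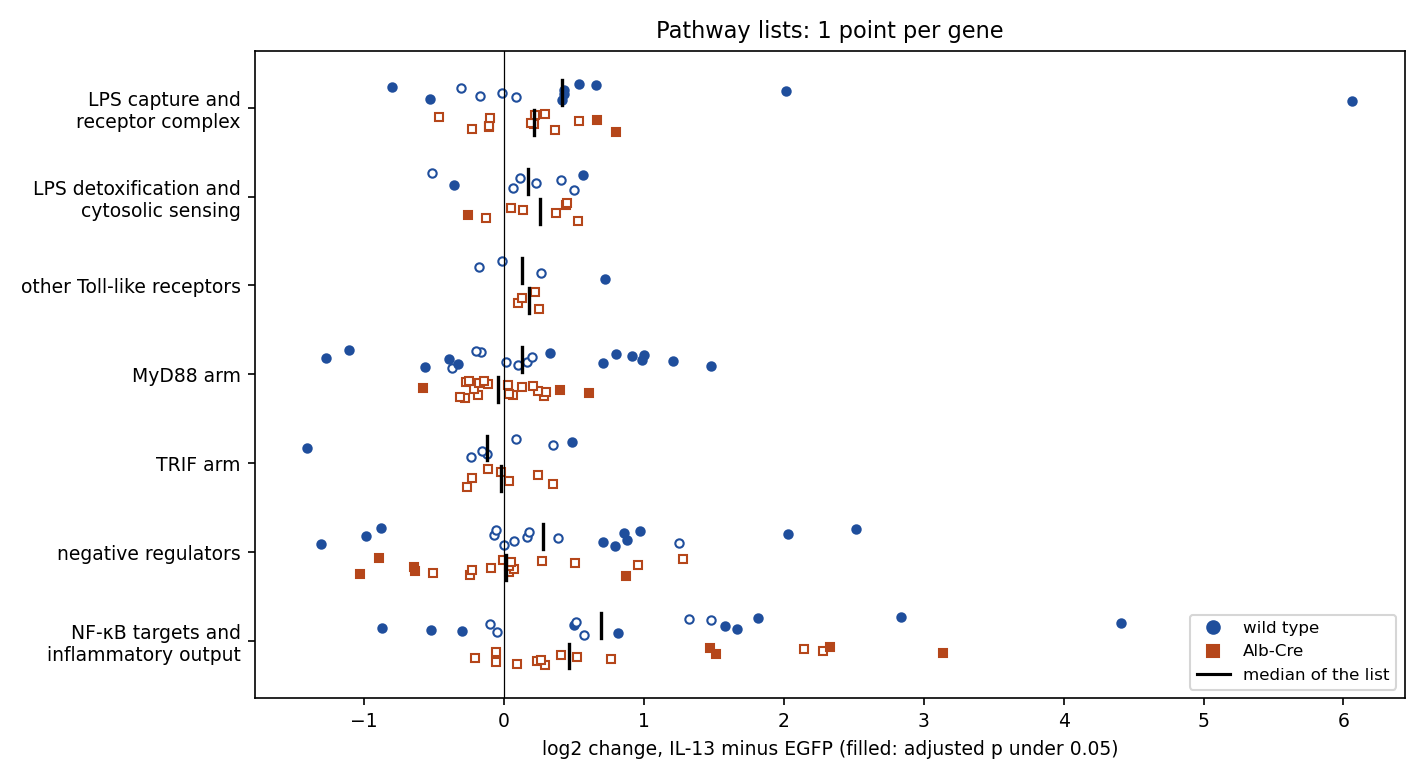
Log2 change with IL-13 (horizontal axis) for the tested genes of 7 pathway lists, 1 point per gene, circles for WT and squares for Alb-Cre; filled points have an adjusted p under 0.05 and vertical bars mark the list median. The lists include the endotoxin sensing genes themselves, and Cd14 at 6.06 is the point farthest to the right.

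The MyD88 arm moved in both directions. Beside the genes already described, 6 of 17 tested rose and 5 fell in WT, and 1 rose and 1 fell in Alb-Cre. Ikbkg, the regulatory subunit NEMO of the IKK complex, rose by 1.48 ± 0.133 in WT and read 0.29 (adjusted p = 0.161) in Alb-Cre. Its responses differed by -1.19 ± 0.188 (adjusted p = 6.78e-04), and on its second probe by -0.61 (adjusted p = 0.0901). Tab1, an activator of the kinase TAK1, rose by 0.998 ± 0.103 in WT and read 0.03 in Alb-Cre, a difference of -0.97 (adjusted p = 4.66e-04) that the dimmest of its probes did not show (-0.14, adjusted p = 0.703). Ube2n, the ubiquitin-conjugating enzyme that works with TRAF6, fell by 1.11 ± 0.115 in WT and had a change of -0.15 in Alb-Cre. Peli2, a ubiquitin ligase that acts on IRAK proteins, fell by 1.27 in WT and by 0.58 in Alb-Cre. The responses of Ube2n and Peli2 differed by 0.96 and 0.69 (adjusted p = 0.0011 and 0.0235).

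In the TRIF arm, the MyD88-independent branch below TLR4, 1 of 7 rose and 1 fell in WT and 0 changed in Alb-Cre. Tbk1, the kinase that activates IRF3, rose by 0.49 ± 0.101 in WT, and its responses differed by -0.51 (adjusted p = 0.0287). Irf7, an interferon-regulatory factor, fell by 1.41 ± 0.173 in WT, and its responses differed by 1.18 (adjusted p = 0.00509). Tank and Azi2, adaptors of TBK1, read 0.35 and -0.24 in WT and did not pass.

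Among the negative regulators other than Irak3, 6 of 17 rose and 3 fell in WT, and 1 rose and 4 fell in Alb-Cre. Socs3, a feedback inhibitor of cytokine receptors, rose by 2.03 ± 0.369 in WT and read 0.95 (adjusted p = 0.0895) in Alb-Cre. Usp18, which restrains interferon signalling, rose by 2.52 ± 0.484 in WT, and its other 2 probes gave 2.58 and 2.31. Sigirr, a decoy-like relative of the IL-1 receptor, fell by 0.99 in WT and by 0.65 in Alb-Cre. Tnip1, a partner of the ubiquitin-editing protein A20, rose by 0.97 ± 0.114 in WT with a difference of responses of -0.70 (adjusted p = 0.0101), which was -0.52 (adjusted p = 0.12) on its second probe. Nfkbib, an inhibitor of NF-kappaB, rose by 0.88 in WT and read -0.23 in Alb-Cre, a difference of -1.11 (adjusted p = 0.00987).

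NF-kappaB targets and inflammatory output genes had 7 of 16 higher, Ccl2 among them, and 3 lower in WT, with a median change of 0.69, and 4 of 16 higher and 0 lower in Alb-Cre, with a median of 0.46. Vcam1, an endothelial adhesion molecule, rose by 2.84 ± 0.215 in WT and by 2.33 ± 0.215 in Alb-Cre, and Lcn2, an iron-scavenging acute-phase protein, by 4.41 ± 0.894 and 3.14 ± 0.894. For neither did the difference of responses pass the test (adjusted p = 0.332 and 0.598). Icam1, another adhesion molecule, rose by 1.58 in WT with a difference of -1.06 (adjusted p = 0.0191). Ccl2, a monocyte chemokine, was detected on the 3 WT IL-13 arrays and on 0 of the other 11, so it passed the filter only through that group. Its signal there was at least 1.40-fold that of WT EGFP, and no size is given for its difference of responses. Il1b went the other way. The gene, which encodes the cytokine IL-1 beta, read -0.10 in WT (adjusted p = 0.812) and rose by 1.51 ± 0.267 in Alb-Cre (adjusted p = 8.18e-04). Its responses differed by 1.61 ± 0.378 (adjusted p = 0.0112).

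Genes were also ranked by how closely their 14 values followed those of Cd14, as the root mean square (RMS) difference of log2 values centred on each probe's mean. Closest to Cd14 were Pmm1, a phosphomannomutase (0.979), Aoc1, diamine oxidase (1.07), Cidec, a lipid droplet protein (1.09), Ccl6, a chemokine (1.12), and Ccl11, the eosinophil chemokine eotaxin (1.14), where the RMS of the centred Cd14 values themselves was 2.5. These 5 rose in WT by 3.81 to 5.44, and in Alb-Cre by 1.32 to 2.87 except Cidec, which had 0 of 4 Alb-Cre EGFP arrays detected and did not pass (adjusted p = 0.296). For Lbp, with an RMS of its own of 0.853, the closest were Cpne8 (0.274), Litaf (0.279), Socs3 (0.302), Crispld2 (0.309) and Gfpt2, an enzyme of the hexosamine pathway (0.328). Cpne8, Litaf and Socs3 rose in WT by 1.44 to 2.16. Crispld2 and Gfpt2 were detected on 0 of the 8 EGFP arrays and were at least 3.61-fold and 3.30-fold higher in WT. For Tlr4, whose own RMS was 0.256, they were Atp6v1b2, a subunit of the vacuolar proton pump (0.0978), Hdac2, a histone deacetylase (0.102), Rtraf (0.106), Rhbdd1 (0.107) and Nhp2 (0.109), whose WT rises were 0.45 to 0.69. These likenesses are over 14 arrays that share the 4 groups, and they carry no test.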

How the data were processed

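Total RNA of 14 whole-liver samples was measured on Illumina bead arrays. The deposited tables hold a linear probe intensity and a detection p-value per array, per the file headers. The submitters' processing notes name GenomeStudio 2011.1. The authors also deposited a log2 table, in which an array's values were log2 intensities scaled by a constant (4.52 to 4.85) to a median of 500. Other steps before deposit are not given in the sources used here.

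In R 4.3.3, limma 3.58.1 corrected the background from the detection p-values (neqc, normexp with an offset of 16), quantile normalized and took log2. Probes with a detection p under 0.05 on at least 3 arrays were kept, 14109 in all. The platform table gave 1 symbol to 23978 of 25697 probes and none to 1719, and 23962 gene IDs matched a RefSeq table of GRCm38.p6. One limma model with a mean per group (10 residual degrees of freedom) gave 5 two-sided contrasts, adjusted by Benjamini-Hochberg over all kept probes. A ± sign after a change gives limma's standard error. A gene undetected on every array of a group was given a bound. The script was tested on simulated data.

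The members, the pathway and marker lists and the tests were chosen with earlier results of these data known. Named were all members, up to 4 genes per pathway list with the smallest p in the WT contrast and up to 2 in the difference of responses, the 5 genes most like Cd14, Lbp and Tlr4, and defining cell markers. Groups and replicate numbers came from titles, although descriptions number the WT IL-13 samples otherwise. Alternatives covered normalization, filter, probe choice, slide, Xist detection, replicate block, variance moderation and each array left out. The number of arrays limits the precision.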

Additional observations from a re-analysis of the deposited data

Results flagged for a closer look

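Among 122 groups of 4 arrays examined for named genes, 9 held an array that stood apart by Dixon's test, where chance gives about 5%. All were EGFP arrays, the only groups with 4 arrays. Among the endotoxin sensing genes, Tlr4 read 4.47 on Alb-Cre EGFP replicate 2, Tlr2 5.72 on WT EGFP replicate 3 and Myd88 9.22 on WT EGFP replicate 3. The Myd88 value differed from the nearest array (9.15) by less than 0.1, in a group whose SD was 0.0386. The others were Scarb1 at 6.197 on WT EGFP replicate 2, Hsp90b1 at 11.16 and Apoa1 at 14.05 on Alb-Cre EGFP replicate 2, Lyz2 at 8.56 on Alb-Cre EGFP replicate 4, Pmm1 at 5.65 on WT EGFP replicate 1 and Ccl11 at 4.73 on Alb-Cre EGFP replicate 1.

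The IL-13 responses of the genotypes differed, by limma's test of the difference, for the following genes (Alb-Cre minus WT, log2). Some pathway genes were named for a small p in this same difference, so their number says nothing. The response was smaller in Alb-Cre for Cd14 (-5.27), Lbp (-1.47), Myd88 (-0.59), Ikbkg (-1.19), Tab1 (-0.97), Tbk1 (-0.51), Tnip1 (-0.70), Nfkbib (-1.11) and Icam1 (-1.06). The fitted value of Ccl2 (-0.72) gives no size, since 3 of its 4 groups had 0 arrays detected. Of the genes most like Cd14, the differences were -3.18 for Pmm1, -2.68 for Aoc1, -3.39 for Cidec, -2.50 for Ccl6 and -2.57 for Ccl11. Of those most like Lbp they were -1.45 for Cpne8, -1.19 for Crispld2 and -1.44 for Gfpt2. For Crispld2 and Gfpt2 both EGFP groups, and for Cidec the Alb-Cre EGFP group, had 0 arrays detected, so these fitted values give no size. A positive difference was found for Peli2 (0.69), Ube2n (0.96), Irf7 (1.18), Il1b (1.61), Clec4f (2.16) and Alb (1.31). The second Clec4f probe gave 0.51 (adjusted p = 0.261). Genes chosen for likeness to Cd14 or Lbp share their pattern by choice.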

How the results depend on the processing

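Member calls were recomputed under 15 alternatives and with each of 14 arrays left out. Of 1152 single values, 1053 kept their direction and call. Slide 2 alone, with 1 array in each IL-13 group, is left out of the next statement. In every other repeat, Cd14 in WT, its difference of responses and its difference under IL-13 passed the test, as did Lbp and Myd88 in WT. The count of members called in WT stayed between 4 and 6. The Alb-Cre count of 2 became 1 with normexp offset 50, the authors' log2 table, no background correction, no filter, only the groups compared, slide 1 alone, the replicate block, or trended robust moderation. It became 0 on slide 2 alone and with the Xist covariate, and lay between 0 and 2 with an array left out. Cd14 in Alb-Cre changed sign with the Xist covariate (-0.46). Xist detection varies within WT IL-13 alone, through replicate 3, so this covariate carries that 1 array's deviation into the Alb-Cre values and tests no dependence on Xist there. The difference count of 3 became 1 in the authors' log2 table and on slide 1 alone, and ranged from 1 to 4 with an array left out. The IL-13 genotype count of 5 became 2 on slide 1 alone. For the difference of responses, the fit on only the groups compared is the fit as reported. The causes were not tested, except that 1 slide holds fewer arrays.

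Over all probes, calls fell in WT to 3221 on slide 2 alone, from 5377. In Alb-Cre they fell from 2451 to 1113 on slide 1 alone, 752 on slide 2 alone and 1127 with the Xist covariate. For the difference they fell from 1643 to 313 and 754 on slides 1 and 2 alone. Between genotypes under IL-13 they fell from 2748 to 1614 with only the groups compared, 1196 and 1241 on slides 1 and 2 alone, and 1666 with the Xist covariate. Under EGFP the count of 0 became 1 on slide 2 alone.

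Same-numbered arrays deviated together with r between -0.107 and 0.274. These values do not settle whether equal numbers mark a pairing, since the descriptions number the WT IL-13 samples otherwise. With the replicate block the Alb-Cre member count was 1, as Cd14 had 0.80 (adjusted p = 0.0734), and Tlr4 under IL-13 had an adjusted p of 0.0632. Tlr4, Irak1 and Irak3 lay near background, which limits what their values can show.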
